A study of Arabidopsis thaliana with 6 samples.

Results

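Endosperm of mat *nrpd1+/−* and pat *nrpd1+/−* seeds was compared for the methylation of CHH cytosines, those followed by any 2 bases other than G, and 2172 differentially methylated regions (DMRs) on the 5 nuclear chromosomes separated the heterozygotes. The regions described here are the 1112 of these 2172 (51.2%, 391.6 kb) that shared not a single base pair with a CHH DMR between WT and either heterozygote. They were chosen by measured values, namely the difference between the heterozygotes and the absence of a listed difference from WT, so their number, size and direction are given as a description without a test. The other 1060 regions of the list (408.1 kb) overlapped a CHH DMR of mat *nrpd1+/−* only (555), of pat *nrpd1+/−* only (421) or of both (84).

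The study sequenced bisulfite-treated DNA from hand-dissected endosperm of *Arabidopsis thaliana*, the tissue that feeds the embryo, taken 7 days after pollination without treatment, in 2 replicates per genotype. Seeds with mat *nrpd1+/−* endosperm were set by L*er* *nrpd1-/-* mothers pollinated by wild-type Col-0, seeds with pat *nrpd1+/−* endosperm by wild-type L*er* mothers pollinated by Col-0 *nrpd1-/-*, and WT seeds by wild-type L*er* mothers pollinated by wild-type Col-0. All 3 genotypes are thus hybrids of the same 2 strains with the same direction of cross. However, the mutation was introgressed into L*er* from Col-0, and the study reports that Col-0 segments remain in the L*er* mutants. The mothers of mat *nrpd1+/−* seeds thus differed from wild-type L*er* in these segments too, and their part was not tested. Because the mother contributes more genome copies to endosperm than the father, the heterozygotes differ in the number of functional *NRPD1* copies as well as in the parent that supplied them, and these cannot be told apart. Copy number is not expression, since the study reports paternally biased *NRPD1* mRNA. Its level was nearer to WT in mat *nrpd1+/−*, which has fewer functional copies, than in pat *nrpd1+/−*. Reads of both replicates were combined ahead of the DMR calls, and the 15 lists analysed hold no methylation level, no read count and no value per replicate. Each region therefore has 1 value, its depth is unknown, the difference has no replicate check of its own, and the tissue could not be checked by marker genes.

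RNA polymerase IV (Pol IV) has NRPD1 as its catalytic subunit. Its transcripts are made double-stranded by RDR2 and cut by DCL3 into small RNAs, which guide ARGONAUTE proteins to transcripts of RNA polymerase V, where DRM2 methylates the DNA. This RNA-directed DNA methylation (RdDM) acts on cytosines in every context, but CHH sites have no CG-like symmetry and are not copied at replication by the CG maintenance pathway, so that CHH methylation has to be laid down anew after each division.

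The sequences of 3 regions are shown because they hold some of the largest differences in either direction among regions of a single 300-bp window, the unit in which methylation was computed. They are from the TAIR10 nuclear chromosomes (RefSeq copy, + strand, 5′ to 3′), and capitals mark the CHH cytosines of the printed strand.
chr3:16847301-16847600: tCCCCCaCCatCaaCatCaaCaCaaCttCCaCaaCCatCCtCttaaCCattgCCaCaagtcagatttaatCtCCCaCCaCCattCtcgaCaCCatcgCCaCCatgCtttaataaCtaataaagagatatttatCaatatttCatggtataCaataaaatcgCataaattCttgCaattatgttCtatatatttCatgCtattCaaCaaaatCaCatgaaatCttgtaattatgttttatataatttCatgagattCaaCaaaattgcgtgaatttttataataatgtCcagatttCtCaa
chr4:6757201-6757500: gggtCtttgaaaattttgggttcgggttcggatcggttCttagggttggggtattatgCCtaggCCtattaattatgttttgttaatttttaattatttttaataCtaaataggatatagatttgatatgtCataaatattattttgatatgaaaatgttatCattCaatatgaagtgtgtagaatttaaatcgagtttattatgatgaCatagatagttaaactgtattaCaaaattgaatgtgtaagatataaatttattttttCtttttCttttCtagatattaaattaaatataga
chr1:16592801-16593100: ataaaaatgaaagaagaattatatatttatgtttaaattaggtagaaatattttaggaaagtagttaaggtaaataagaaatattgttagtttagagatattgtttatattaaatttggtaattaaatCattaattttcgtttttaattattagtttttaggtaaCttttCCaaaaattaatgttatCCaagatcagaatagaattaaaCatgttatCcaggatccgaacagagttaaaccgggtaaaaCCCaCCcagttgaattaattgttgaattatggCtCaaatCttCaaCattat
The first 2 sequences were more methylated in mat *nrpd1+/−* than in pat *nrpd1+/−*, by 50.6 and 50 percentage points, and the last was less methylated in mat *nrpd1+/−*, with a difference of -49.2 points. The first sequence lay wholly where the WT replicates differed from each other, and the other 2 overlapped no such sequence. The CHH cytosines were unevenly spread over the strands. In the first sequence 64 were on the printed strand and 18 on the other strand, while the second had 15 and 42, and the last 18 and 36. All 3 were rich in A and T, with a GC content of 31.3%, 24.0% and 23.7%, and held 4, 4 and 3 CG sites.

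Of the 1112 regions, 563 were more and 549 less methylated in mat *nrpd1+/−* endosperm than in pat *nrpd1+/−* endosperm. The share lower in mat *nrpd1+/−* was 49.4% (exact 95% Clopper-Pearson interval 46.4% to 52.4%, which like all intervals here covers only the counting of regions), against 43.6% (40.6% to 46.6%) in the other regions of the list. As a background, 1.44% of all 300-bp windows in sequence that passed the filters of both heterozygotes touched a DMR of the list, 0.774% a region higher and 0.664% a region lower in mat *nrpd1+/−*. Since the rule used this comparison, nothing is read from these shares. Differences are given throughout as mat *nrpd1+/−* minus pat *nrpd1+/−*, in percentage points of CHH methylation.

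Most differences were small. The median absolute difference was 13.96 points (quartiles 11.5 and 19.5) in the heterozygote-only regions, against 15.01 points (quartiles 12.1 and 21.8) in the other regions. Regions higher in mat *nrpd1+/−* had a median of 14.4 points and regions lower in mat *nrpd1+/−* a median of -13.5 points. The authors required 10 points, and 348 regions (31.3%) were under 12 points, of which 153 were higher and 195 lower in mat *nrpd1+/−*. At the other end, 263 regions (23.7%, 21.2% to 26.3%) differed by 20 points or more, 96 by 30 or more and 33 by 40 or more. In the other regions, 302 of 1060 (28.5%, 25.8% to 31.3%) reached 20 points. The regions just inside the threshold had differences of -10.009, -10.01 and -10.01 points, and lay in AT4G10870, in the calmodulin gene *CAM5* and across the neighbouring genes *OVA2* and AT5G49040.

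**Figure D1:**
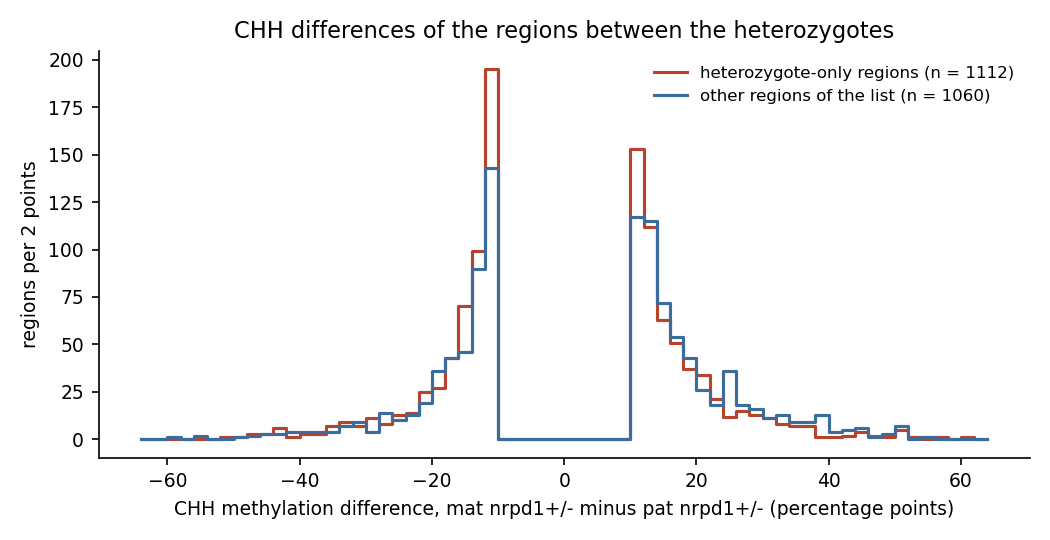
Number of regions (vertical axis, per 2 points) by their CHH methylation difference, mat *nrpd1+/−* minus pat *nrpd1+/−* in percentage points (horizontal axis), for the 1112 heterozygote-only regions (red) and the other 1060 regions of the list (blue). The gap between -10 and 10 points is the threshold of the list, and the 348 heterozygote-only regions under 12 points form the peaks beside it.

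The regions were short. A single window of up to 300 bp made up 723 of them (65.02%, 62.1% to 67.8%), against 499 of the other regions (47.1%, 44.0% to 50.1%). There were 237 regions of 400 bp and 131 of 500 bp, with a median absolute difference of 14.7 and 17.9 points, against 13.0 points for the 721 of 300 bp. The longest, chr5:18563101-18564300 (1200 bp), differed by 53.1 points, the second longest, chr2:5433201-5434300 (1100 bp), by 28.2 points, and chr1:13438101-13438900, the first in genome order of 3 regions of 800 bp, by 18.0 points. These 3 named regions were higher in mat *nrpd1+/−* and overlapped sequence in which the WT replicates differed from each other, while another of 800 bp, chr4:1463101-1463900, passed the WT filters. How the value of a merged region was formed from its windows is not given in the sources used here, which bears on every value of a region longer than 1 window.

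Whether a region could appear in a list against WT depends on the WT filters. The authors left out regions in which replicates of 1 genotype differed, called variable regions here, and regions whose share of maternal reads departed from that of endosperm. Of the 1112 regions, 754 lay wholly in sequence that passed these filters in WT, and 358 did not. Of these 358, 341 (30.7% of all 1112, 28.0% to 33.5%) overlapped a variable CHH region of WT, and 183 were covered by such regions over their whole length. Only 18 regions were partly or wholly outside the maternal-read list of WT, 1 of them also in a variable region. Across all windows 1.38% touched a variable CHH region of WT, and of the other regions of the list 4 of 1060 did (0.377%, 0.103% to 0.963%). This contrast follows in part from the rule, because sequence that varied between the WT replicates could not be called against WT.

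The 754 regions that passed the WT filters were evenly split, 377 higher and 377 lower in mat *nrpd1+/−*, with a median absolute difference of 13.7 points. If both heterozygotes had been within 10 points of WT over the same cytosines, they could have differed from each other by less than 20 points. However, 170 of the 754 (22.5%, 19.6% to 25.7%) differed by 20 points or more, 64 of them by 30 or more, and among regions of a single window it was 104 of 534 (19.5%, 16.2% to 23.1%). Of the 170, 83 were lower in mat *nrpd1+/−*. Within 300 bp of these 170 regions lay a variable CHH region of any genotype in 39 cases (22.9%, 16.9% to 30%), against 146 of all 754 (19.4%, 16.6% to 22.4%) and 6.63% of windows that passed the same filters and lay outside DMRs against WT. The window share leaves out windows at exactly 300 bp, which the counts of regions include, so it is too low beside them by an amount not counted. Why these regions are in neither list against WT was not tested, since the lists do not show which windows had enough reads in WT, or which cytosines were shared in each comparison.

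**Figure D2:**
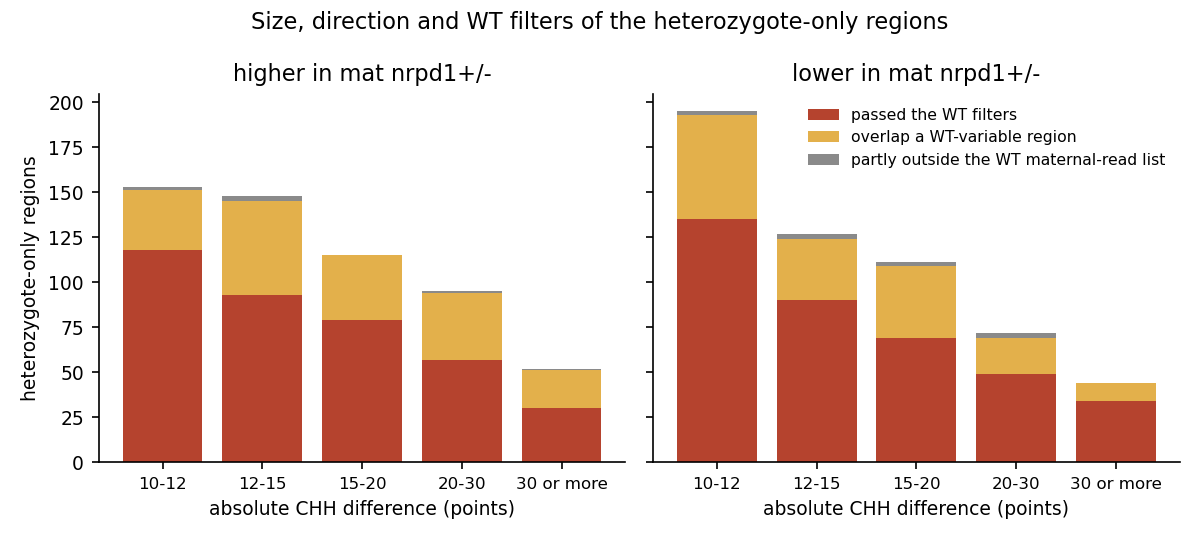
Number of heterozygote-only regions (vertical axis) by absolute CHH difference in percentage points (horizontal axis), for the 563 regions higher (left) and the 549 lower (right) in mat *nrpd1+/−*. Colours show whether a region passed the WT filters (754 regions), overlapped a variable CHH region of WT (341) or was only partly in the WT maternal-read list (17 without such an overlap), and the regions of 20 points or more that passed the WT filters number 170 over both panels.

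The regions were also set beside the nearest DMR against WT. The median distance was 5800 bp, and 199 regions (17.9%, 15.7% to 20.3%) lay within 1 kb of one, against 7.07% of the windows that overlapped no such DMR. The window share leaves out windows at exactly 1 kb, which the counts of regions include, so it is too low beside them by an amount not counted. Among regions higher in mat *nrpd1+/−* it was 122 of 563 (21.7%, 18.3% to 25.3%), and among those lower in mat *nrpd1+/−* 77 of 549 (14.0%, 11.2% to 17.2%). A DMR of mat *nrpd1+/−* was within 1 kb of 134 regions (12.05%, 10.2% to 14.1%). For a DMR of pat *nrpd1+/−* it was 101 regions (9.08%, 7.46% to 10.9%). The list of mat *nrpd1+/−* against WT was also the larger, with 2234 regions (812.7 kb) against 2056 (759.9 kb). The share of windows near each list alone was not counted, so nothing is read from the difference between these counts. At the edge of the rule, 11 regions touched a DMR against WT without overlap. The first of these in genome order were chr2:69001-69300 (12.6 points, in a coding exon of AT2G01050), chr2:3531401-3531700 (10.2 points) and chr2:4309101-4309400 (-38.7 points, 920 bp downstream of AT2G10940). Just outside the rule, regions that shared 100 bp with such a DMR included chr1:3713601-3714000 (16.7 points, in AT1G11112), chr1:5389601-5389900 (-20.2 points, 51 bp upstream of AT1G15670) and chr1:12015801-12016100 (-23.8 points, 550 bp from the pseudogene AT1G33130).

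The 10 largest positive differences, higher in mat *nrpd1+/−*, ranged between 46.7 and 61.5 points. The largest, 61.5 points over chr5:5144901-5145500, lay in a coding exon of AT5G15780. The 1200-bp region on chromosome 5 spanned coding sequence of *RLP55*, a gene of the receptor-like protein family, and an exon part without coding sequence of the adjacent AT5G45760. Another region in a gene, chr5:7314501-7315000 (50.3 points), overlapped an exon part without coding sequence of AT5G22090. All 3 of these regions in genes overlapped a variable CHH region of WT. The remaining 7 overlapped no protein-coding gene.

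Among those 7, chr4:6757201-6757500 (50 points), the second of the printed sequences, lay 605 bp upstream of *MTSSB*, which encodes a single-stranded DNA-binding protein of mitochondria. The region chr4:6845901-6846600 (50.2 points) lay 273 bp upstream of AT4G11230, and the first printed sequence 303 bp downstream of AT3G45840. The region chr5:12012901-12013300 (49.5 points) overlapped the pseudogene AT5G32404, and chr4:2862101-2862700 (57.8 points) lay 614 bp downstream of the pseudogene AT4G05583. The last 2 were farther from genes. The region chr1:16395101-16395500 (51.8 points) lay 2304 bp from the pseudogene AT1G43502, and chr5:13815901-13816200 (46.7 points) 3305 bp from AT5G35610. Of the 10, 4 passed the WT filters and 6 overlapped a variable CHH region of WT.

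The 10 largest negative differences, lower in mat *nrpd1+/−*, ranged between -50.3 and -43.7 points. None of them overlapped a protein-coding gene, 9 were a single window, and 8 passed the WT filters while 2 overlapped a variable CHH region of WT. The region chr2:5342101-5342400 (-44.2 points) overlapped the pseudogene AT2G12990. Upstream of protein-coding genes lay chr5:19001401-19001700 (-45.0 points, 344 bp from AT5G46825), chr1:16653301-16653600 (-46.5 points, 429 bp from AT1G43900) and chr5:9290901-9291200 (-44.2 points, 638 bp from AT5G26740). The region chr4:5721401-5721700 (-43.7 points) lay 1950 bp upstream of *CRY1*, the gene of the blue light receptor cryptochrome 1. Downstream of genes lay chr5:7060001-7060300 (-43.9 points, 691 bp from AT5G20840) and chr2:1652501-1652800 (-46.0 points, 206 bp from the pseudogene AT2G04720). A further 2 were 1187 bp (chr5:14081801-14082200, -47.7 points) and 3293 bp (chr1:16592801-16593100, -49.2 points) from the nearest annotated gene, a pseudogene in both cases.

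The position of the regions was not used directly by the rule. However, the rule let in regions in sequence that varied between the WT replicates, which the other regions hardly held. The regions that passed the WT filters are therefore also set beside the other regions further below. In total, 298 regions (26.8%, 24.2% to 29.5%) overlapped a protein-coding gene, against 340 of the other regions (32.1%, 29.3% to 35.0%) and 60.9% of all windows. A coding exon was overlapped by 166 regions (14.9%, 12.9% to 17.2%), against 178 of the other regions (16.8%, 14.6% to 19.2%) and 49.5% of windows. More than 1 kb away from every protein-coding gene lay 546 regions (49.1%, 46.1% to 52.1%), against 412 of the other regions (38.9%, 35.9% to 41.9%). The 1 kb upstream of a protein-coding gene was overlapped by 349 regions (31.4%, 28.7% to 34.2%), 384 of the other regions (36.2%, 33.3% to 39.2%) and 26.9% of windows, and the 1 kb downstream by 230 regions (20.7%, 18.3% to 23.2%), 282 of the other regions (26.6%, 24.0% to 29.4%) and 27.3% of windows. No difference between these shares was tested, because the regions come from 1 pooled comparison and are not replicates of it. The median length was 300 bp, against 400 bp in the other regions, and a longer region has more room to overlap a feature. The part of length in the shares was not tested.

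Pseudogenes, in contrast, were overlapped by 193 regions (17.4%, 15.2% to 19.7%), against 130 of the other regions (12.3%, 10.3% to 14.4%) and 9.65% of windows. Non-coding RNA genes were overlapped by 29 regions (2.61%, 1.75% to 3.72%), 50 of the other regions (4.72%, 3.52% to 6.17%) and 3.40% of windows, and 605 regions (54.4%) overlapped no annotated gene of any kind, against 556 of the other regions (52.5%) and 27.8% of windows. By direction, a protein-coding gene was overlapped by 162 of the 563 regions higher in mat *nrpd1+/−* (28.8%, 25.1% to 32.7%) and by 136 of the 549 lower in mat *nrpd1+/−* (24.8%, 21.2% to 28.6%). Regions that lay in a protein-coding gene but in no exon were few, 20 of the 1112 (1.80%), against 31 of the other regions (2.92%). The share of windows was not counted here. Of these 20, 17 were higher and 3 lower in mat *nrpd1+/−*. This is 1 of several places counted by direction, and nothing is read from the split.

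**Figure D3:**
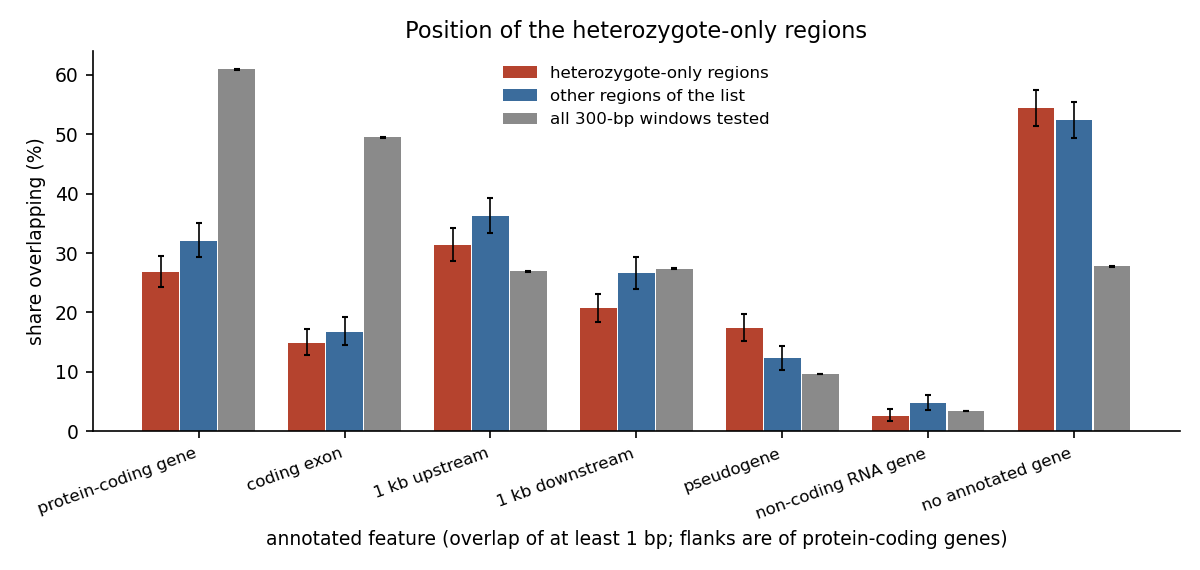
Share of regions or windows in percent (vertical axis) that overlap each annotated feature by at least 1 bp (horizontal axis). Red shows the 1112 heterozygote-only regions and blue the other 1060 regions of the list. Grey shows all 300-bp windows in sequence that passed the filters of both heterozygotes, whatever their unknown depth. Error bars are exact 95% Clopper-Pearson intervals. Protein-coding genes were overlapped by 26.8%, 32.1% and 60.9%, and pseudogenes by 17.4%, 12.3% and 9.65%.

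Positions were also counted separately for the regions that passed the WT filters and those that did not. A protein-coding gene was overlapped by 158 of the 754 that passed (21.0%, 18.1% to 24.0%) and by 140 of the 358 that did not (39.1%, 34.0% to 44.4%). For coding exons it was 76 (10.1%, 8.02% to 12.5%) and 90 (25.1%, 20.7% to 29.97%), and for pseudogenes 145 (19.2%, 16.5% to 22.2%) and 48 (13.4%, 10.1% to 17.4%). Of the other 1060 regions of the list, 1056 passed the WT filters, so the 754 are their nearer counterpart. The shares of these 1060 were 32.1% in protein-coding genes, 16.8% in coding exons and 12.3% in pseudogenes. Of the 298 regions in genes, 140 were thus not wholly in sequence that passed the WT filters. Single windows made up 70.8% of the 754, 52.8% of the 358 and 47.1% of the other regions, and the part of length in these shares was not tested.

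The share of regions in genes was lower in classes of larger difference. Of the 348 regions under 12 points, 121 overlapped a protein-coding gene (34.8%, interval 29.8% to 40.03%). The share was 28.0% at 12 to 15 points, 25.7% at 15 to 20 points, 16.8% at 20 to 30 points (28 of 167) and 14.6% at 30 points or more (14 of 96, interval 8.21% to 23.3%). In the other regions the shares over the same classes were 41.9%, 36.8%, 30.1%, 21.1% and 20.5%. Among regions that passed the WT filters, the share was 30.8% under 12 points and 7.81% at 30 points or more, and 15 of the 170 regions of 20 points or more overlapped a protein-coding gene (8.82%, 5.02% to 14.1%).

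The number of CHH cytosines was also lower in classes of larger difference. Single-window regions had a median of 76 CHH cytosines on both strands of the reference below 12 points, 72 at 12 to 15 points, 70 at 15 to 20 points, 65 at 20 to 30 points and 62.5 at 30 points or more. The median GC content of all regions over these classes was 32.1%, 31.3%, 30.8%, 29.0% and 26.3%. These are cytosines of the reference, and the lists do not show how many of them were measured. The authors set only a low minimum of cytosines shared by both genotypes, so a value can rest on far fewer sites. A window with fewer cytosines can give a methylation value from fewer sites. The part of this in the size of the differences was not tested. The share overlapping a variable CHH region of WT was 26.1% below 12 points and between 31.3% and 34.1% in the 4 larger classes.

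**Figure D4:**
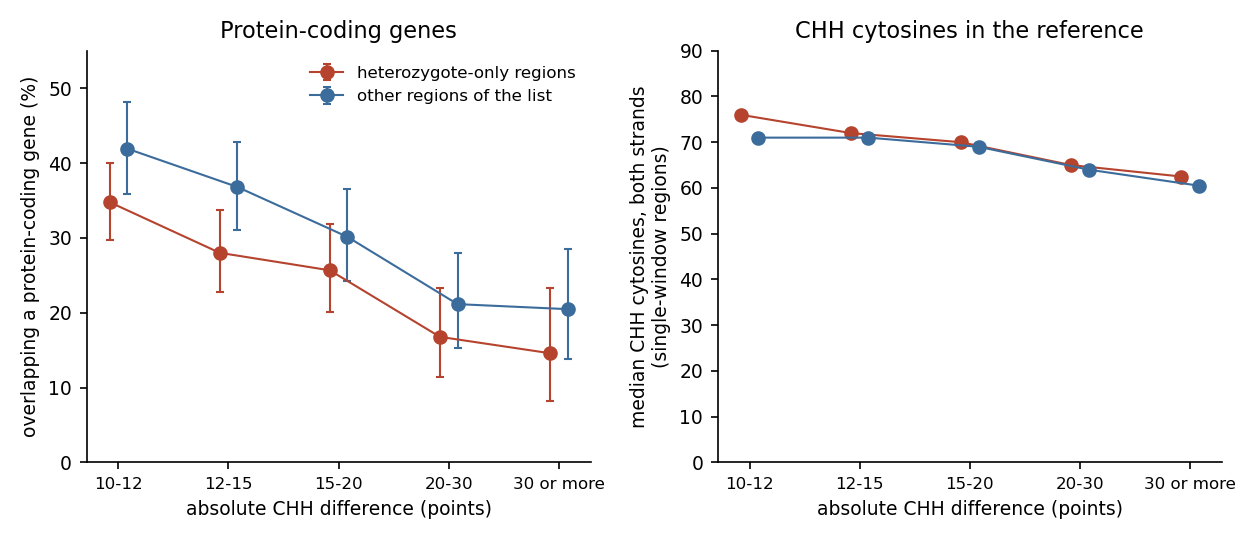
Left, share of regions in percent that overlap a protein-coding gene, with exact 95% Clopper-Pearson intervals, and right, median number of CHH cytosines on both strands in regions of a single window, both by absolute CHH difference in percentage points (horizontal axes), for the heterozygote-only regions (red) and the other regions of the list (blue). In the heterozygote-only regions the share in genes was 34.8% in the lowest class and 14.6% in the highest, and the median cytosine number 76 and 62.5.

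Measured from the midpoint of a region to the nearest annotated start of a protein-coding gene, the bin with the most regions was the 500 bp upstream of the start. It held 157 regions (14.1%), against 171 of the other regions (16.1%) and 10.1% of windows. The 500 bp downstream of the start held 77 regions (6.92%), against 93 of the other regions (8.77%) and 11.0% of windows, and the next 500 bp held 53 (4.77%), 66 (6.23%) and 10.8%.

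**Figure D5:**
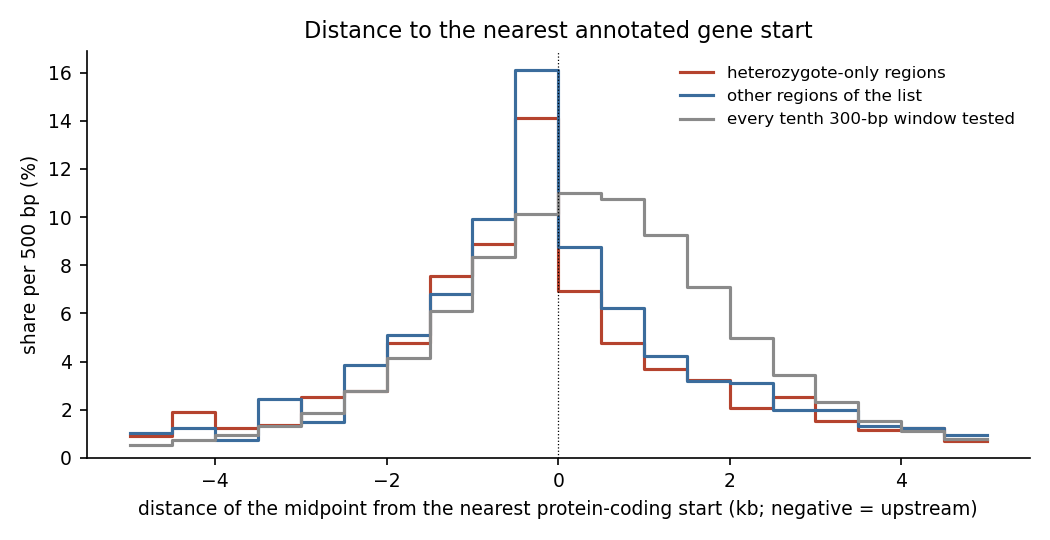
Share in percent per 500 bp (vertical axis) by the distance of the midpoint from the nearest protein-coding gene start in kb (horizontal axis, negative upstream). Red shows the heterozygote-only regions and blue the other regions of the list. Grey shows 1 in 10 of the 300-bp windows in sequence that passed the filters of both heterozygotes. The heterozygote-only regions peak in the 500 bp upstream at 14.1%, and fall to 6.92% in the 500 bp downstream, where windows reach 11.0%.

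The regions lay in sequence poor in genes. In the 100 kb on either side, protein-coding genes made up a median of 40.8% of the sequence, against 52.4% for the other regions and 61.9% for windows. Under 20% gene sequence was found around 319 regions (28.7%, 26.0% to 31.4%), 218 of the other regions (20.6%, 18.2% to 23.1%) and 11.0% of windows. Of 121 bins of 1 Mb, 15 held 20 or more regions each and together 410 of the 1112 (36.9%), counted without regard to how much sequence of a bin passed the filters. The densest was chr1:16000001-17000000 with 35 regions, of which 19 were lower in mat *nrpd1+/−*, at 21.8% gene sequence. It was followed by chr2:6000001-7000000 with 33, and by chr3:12000001-13000000 and chr5:13000001-14000000 with 32 each, at 26.8%, 4.35% and 18.1% gene sequence.

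By chromosome, there were 182, 243, 221, 200 and 266 regions on chromosomes 1 to 5. Per Mb of sequence that passed the filters of both heterozygotes, chromosome 2 had the highest density with 18.8 regions, and the other chromosomes had between 10.8 (chromosome 3) and 12.7 (chromosome 1). The other regions of the list were also densest on chromosome 2, at 17.2 per Mb, against 12.4 over all chromosomes. Neighbouring regions had the same or the opposite direction in similar numbers. Of 212 pairs of neighbours within 10 kb, 101 had the same and 111 the opposite direction, and of 33 pairs within 1 kb it was 18 and 15.

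Within 1 kb of a region, or overlapping it, lay 752 protein-coding genes. Of these, 728 had 1 region and 24 had 2, and none had 3 or more. The following genes with 2 regions were chosen after their values were seen. Between *OCT3*, a gene of the organic cation transporter family, and *CYP79F2*, which encodes a cytochrome P450 of glucosinolate synthesis, a region 14.7 points higher in mat *nrpd1+/−* in *OCT3* was followed by a region of -18.3 points in *CYP79F2*. Both of them overlapped a variable CHH region of WT. At *TET13*, a tetraspanin gene, a region 191 bp upstream differed by 35.6 points and a region 824 bp downstream by -11.0 points, and both overlapped a variable CHH region of WT.

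The genes *NF-YC5* and *NF-YC6* encode subunits of CCAAT-binding transcription factors and lie next to each other. A region in *NF-YC5* differed by 12.7 points, a region between the genes by 12.7 points and a region in *NF-YC6*, which overlapped a variable CHH region of WT, by -11.4 points. Upstream of *DNMT2*, whose product is a homolog of DNA methyltransferases that methylates transfer RNA, regions at 238 and 738 bp differed by -10.7 and -10.3 points, the nearer one within a variable CHH region of WT. At *MAKR5*, a region in the gene differed by 11.6 points and a region 5 bp upstream, which overlapped a variable CHH region of WT, by 34.4 points. In 10 of the 24 genes the 2 regions had opposite directions.

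The genes of DNA methylation itself were looked up next. Of 25 listed genes of RNA-directed DNA methylation, 22 were matched in the annotation, 20 lay wholly in sequence that the maternal-read lists of both heterozygotes retained, and 2 had a region within 1 kb. The first was *DMS3*, which encodes a component of the complex that brings RNA polymerase V to chromatin. A region of 400 bp, chr3:18255801-18256200, overlapped an exon part without coding sequence of *DMS3* and a coding exon of the neighbouring *emb1796*, and was 19.2 points higher in mat *nrpd1+/−*. The second was *MORC6*, an ATPase gene needed for silencing (annotated as *DMS11*), where chr1:6593601-6594000 was 16.2 points higher in mat *nrpd1+/−* and also lay 838 bp downstream of *RKF2*. Both regions overlapped a variable CHH region of WT.

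Of 14 listed genes of other methylation and demethylation pathways, all matched, 8 were wholly retained and 0 had a heterozygote-only region within 1 kb, while *MET1*, the CG maintenance methyltransferase, had 1 of the other regions. Of 23 listed genes of the PRC2 complex, imprinting or endosperm development, 22 were matched and 16 wholly retained, again with 0 heterozygote-only regions, while *HDG8* and *AGL28* had 1 other region each. Of 7 genes that the study discusses for mRNA changes or seed traits, 6 were matched, 4 were wholly retained and 0 had a region. Over all lists, with each gene counted once, 2 of 63 matched genes, or 2 of the 48 wholly retained ones, had a heterozygote-only region within 1 kb. For comparison, the annotation held 20719 protein-coding genes wholly in retained sequence, of which 750 (3.62%) had one within 1 kb. *NRPD1* was not retained, so that no region could be called at the mutated gene itself.

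Methylation in the CG context, measured in the same libraries but not used by the rule, was compared at the same places. A CG DMR between the heterozygotes (at least 30 points) was overlapped by 18 regions (1.62%, 0.962% to 2.55%), against 27 of the other regions (2.55%, 1.69% to 3.68%) and 0.744% of the windows that passed the CG filters. Of the 18, 12 passed the WT filters. CHH and CG methylation were both higher in mat *nrpd1+/−* in 8 of them and both lower in 4, while in 3 CHH was higher and CG lower and in 3 CHH lower and CG higher. Both contexts come from the same reads, so this is no independent measurement of the libraries.

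The largest CG difference was at chr1:11155301-11155600, 1097 bp upstream of AT1G31220, where CG methylation differed by 81.3 points and CHH methylation by 11.4 points. The next were chr3:11607001-11607300 (CG 51.8 and CHH 11.4 points, 302 bp upstream of the pseudogene AT3G29767), chr5:12449101-12449500 (CG 47.2 and CHH 20.5 points) and chr4:1463101-1463900 (CG 46.7 and CHH 20.03 points). The last overlapped the pseudogene AT4G03310 and lay 566 bp upstream of *Tic20-IV*, a gene of the chloroplast protein import machinery. The largest CHH difference among the 18 was 34.9 points at chr1:11241701-11242100, 601 bp upstream of AT1G31380, with a CG difference of 39.4 points. In a coding exon of AT2G29880, chr2:12742601-12742900 had 39.4 points in CG and 10.2 points in CHH.

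Both contexts were lower in mat *nrpd1+/−* at chr1:1975801-1976100 (CG -42.7 and CHH -15.02 points, 1274 bp downstream of AT1G06470) and at chr3:18458001-18458500 (CG -38.1 and CHH -13.4 points, 1875 bp upstream of the transcription factor gene *bZIP5*). Opposite signs were found at chr5:13312401-13312700, 546 bp upstream of AT5G35050, with 36.7 points in CG and -11.7 points in CHH. They were also found at chr5:6361001-6361300, 475 bp downstream of *IPT5*, which encodes a cytokinin synthesis enzyme, with 36.0 points in CG and -10.4 points in CHH.

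The regions, like the other regions of the list, held fewer CHH cytosines and less GC than windows. They held a median of 24.0 CHH cytosines per 100 bp on both strands (quartiles 20.7 and 27.7), against 23.3 (20.3 and 26.3) in the other regions and 26.3 (23.7 and 29.0) in windows. The median GC content was 31.0%, 29.2% and 36.3%, and there were 1.67, 1.60 and 2.00 CG sites per 100 bp. Of the CHH cytosines, a median of 41.7% were followed by A, against 42.6% in the other regions and 40.9% in windows, and 20.3% were followed by C, against 19.7% and 21.3%. Regions higher and lower in mat *nrpd1+/−* had 24.0 and 23.7 CHH cytosines per 100 bp and a GC content of 31.3% and 30.3%.

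The share of maternal reads was similar at the regions in each genotype. This follows in part from the authors' filter, which kept only sequence with a maternal share near that of endosperm. The WT value below covers 1094 of the 1112 regions. As a fraction of reads over the retained stretch that holds each region, the median was 0.630 in mat *nrpd1+/−*, 0.636 in pat *nrpd1+/−* and 0.632 in WT, and over the other regions of the list it was 0.632, 0.636 and 0.633. These stretches are far longer than the regions, so the values describe their surroundings.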

How the data were processed

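Bisulfite-treated endosperm DNA of 3 genotypes, with 2 replicates each, was sequenced across the genome. Per the labels and the study's methods, the authors trimmed reads with Trim Galore and aligned them to TAIR10 with Bismark. They computed methylation in overlapping 300-bp windows over cytosines covered in both genotypes, pooled replicates, called windows past 10 (CHH) or 30 (CG) points, merged them, and removed variable regions and regions with an unusual maternal share. A window needed at least 3 cytosines shared by both genotypes and a minimum depth of reads. The deposited DMR lists hold a difference in percent methylation as a score in percentage points, the authors' own comparison and the only value given per region. The deposited maternal-read lists hold a fraction of reads. For CHH in pat *nrpd1+/−* against WT, the difference stands 1 column after the place its header gives. The lists carry no depth.

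Overlaps (at least 1 bp), distances and base composition were computed with Python 3.11.15, numpy 2.4.6 and pandas 2.3.3, intervals with scipy 1.17.1 and figures with matplotlib 3.10.9, and the counting was tested on simulated data. The 3 CHH DMR lists and the CG list between the heterozygotes held no value under their threshold. Windows for comparison were 300 bp at 100-bp steps, wholly in sequence retained in both heterozygotes and outside their variable regions, with 1 window in 10 used for base composition and surroundings. Which of these windows had enough reads for a call is unknown, so they can include some that the authors could not compare. Genes came from the RefSeq annotation of the same assembly, in which many pseudogenes carry no description. Transposable elements were not analysed here, and whether the annotated pseudogenes include any was not checked. No test was made, since regions are not replicates and the lists hold pooled values.

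Regions named are the 10 largest differences in each direction, the 3 longest, those nearest the edges of the rule, those within 1 kb of listed genes and the 10 with the largest CG difference. Of the 10 largest negative differences, 1 is not reported here in detail. The genes with 2 regions that the text names were chosen after their values were seen. The members, lists and rules were chosen with earlier results of these data known.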

Additional observations from a re-analysis of the deposited data

How the results depend on the processing

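Of 51 values of 9 results under the alternatives tried, 32 stayed within the interval of the reported value (counts within 1.5 times), and 19 moved. The share lower in mat *nrpd1+/−*, 49.4% as reported, was 50.5% without regions within 300 bp of a CHH DMR against WT. It was 50% in regions that passed the WT filters and 46.4% at a difference of 15 points or more. Since the rule used this comparison, nothing is read from these shares either. A stricter difference of 15 points left 489 regions, with a median absolute difference of 20.6 points, 53.8% at 20 points or more, 33.5% overlapping a variable CHH region of WT, 20.4% overlapping a protein-coding gene, and 22.4 CHH cytosines per 100 bp. Without regions of a single window 389 remained, of which 46.3% were lower in mat *nrpd1+/−*, with a median of 15.7 points, 31.4% at 20 points or more and 41.9% overlapping a variable CHH region of WT. Keeping only regions that passed the WT filters gave 0% overlapping such a variable region, by construction, 21.0% overlapping a protein-coding gene, and 23.3 CHH cytosines per 100 bp. When at least 50% of a region had to be covered, 27.6% overlapped a variable CHH region of WT, 18.0% a protein-coding gene and 24.6% its 1 kb upstream, and with 500 bp or 2 kb upstream the last share was 22.4% or 44.8%. The other causes of these shifts were not tested beyond what the settings themselves fix.

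No paired analysis was possible because the lists hold pooled values and no value per replicate. No replicate was left out either. The planned share of regions overlapping a transposable element was not run, since no annotation of such elements was used here. The depth of each region is unknown.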
